A study of Mus musculus with 8 samples.

Results

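The inflammasome genes Nlrp3, Aim2, Nlrc4, Naip5, Pycard, Casp1, Casp4 and Gsdmd were followed together with Card6 in mouse peritoneal exudate leukocytes, giving 9 genes of the 49671 in the deposited tables. The rows were taken by gene symbol, and each of the 9 symbols gave 1 row. The first 8 genes form the machinery from sensing to membrane pore. Card6 was added because it had been selected on its small p in the comparison of SPM with vehicle. Values of that comparison are therefore given for the 9 genes as a description, and nothing is read from their p-values.

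RNA was sequenced from the exudates of 8 male C57BL/6 mice of WT genotype, 6 to 8 weeks old, with 4 mice in each group and 1 library per mouse. The SPM mice received 0.1 ng of each of RvD1, RvD2, RvD5, MaR1 and RvE2, specialized pro-resolving lipid mediators, by intraperitoneal injection, first on day 0, then on days 2, 5, 7 and 9, and once more on day 12. The vehicle mice received dilute ethanol in saline on those days. Every mouse of both groups was given zymosan A, a yeast cell wall preparation, at 1 mg on day 12, and exudates were taken 12 h later, so no mouse without zymosan was compared. The cells were mixed leukocytes that were not sorted, and the number of cells that carry a transcript and its amount per cell cannot be told apart in these values.

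Inflammasomes are cytosolic complexes in which a sensor, directly or through the adaptor ASC (encoded by Pycard), activates caspase-1. Caspase-1 matures the cytokines IL-1β and IL-18 and cleaves gasdermin D, whose fragment forms pores in the plasma membrane and can end in a lytic death called pyroptosis. Much of this control acts on proteins, through assembly and cleavage, which RNA levels do not measure.

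Gene counts summed to 15154054 to 21114301 per mouse, with a mean of 17805200 in SPM and 20701500 in vehicle mice (two-sided exact permutation test over 70 arrangements, p = 0.0857). Of 21423 genes tested, 0 had an adjusted p under 0.05 between the groups by edgeR's quasi-likelihood test with Benjamini-Hochberg adjustment, against 0 by DESeq2, 0 by limma on log2(TPM + 1) and 1303 at an unadjusted p under 0.05 in edgeR. Keeping every gene with 1 count or more gave 160 genes with an adjusted p under 0.05, in a fit where edgeR gave all genes a single prior spread. Neutrophil markers led the cell type lists, with 8 of 8 genes detected in every mouse and a summed level of 60501 to 94585 TPM in SPM and 47420 to 78169 TPM in vehicle mice. The 5 monocyte markers summed to 1780 to 2226 TPM in SPM and 2053 to 2467 TPM in vehicle mice, and the 8 markers of resident macrophages to 918 to 1566 TPM and 1173 to 1619 TPM. B cell markers summed to 583 to 1340 TPM in SPM and 623 to 860 TPM in vehicle mice, mast cell markers to 91.9 to 192 TPM and 113 to 163 TPM, and erythroid markers to 117 to 393 TPM and 196 to 453 TPM. Markers of T and NK cells (38.2 to 130 TPM), eosinophils (13.3 to 37.9 TPM, 3 of 4 markers found), fibroblasts (20.7 to 47.5 TPM) and mesothelial cells (4.03 to 9.23 TPM) were also at low levels. The part of cell composition in the values of the 9 genes was not tested.

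All of the 9 genes were expressed in every mouse, at 307 to 5324 counts per mouse. Levels between genes were compared as TPM (transcripts scaled to a common total per library), which correct for gene length. Gsdmd was highest with a mean of 249 ± 14.1 TPM (SD over 8 mice), at rank 625 among all genes, and Nlrc4 was lowest with 16.1 TPM, at rank 6214. Between them stood Casp1 with 174 TPM, Nlrp3 with 166 TPM, Casp4 with 133 TPM, Pycard with 56.2 TPM, Aim2 with 42.6 TPM, Naip5 with 30.9 TPM and Card6 with 22.5 TPM. On this scale the pore former, both caspases and the sensor Nlrp3 formed an upper group. The adaptor, the other sensors and Card6 formed a lower one. The exonic length of a gene covers all its annotated forms, at 3800 bases for Pycard and 3710 for Casp4. The longest single transcript of Casp4 has 1901 bases. Which forms were expressed was not determined, so the order and the groups hold only for these lengths.

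**Figure D1:**
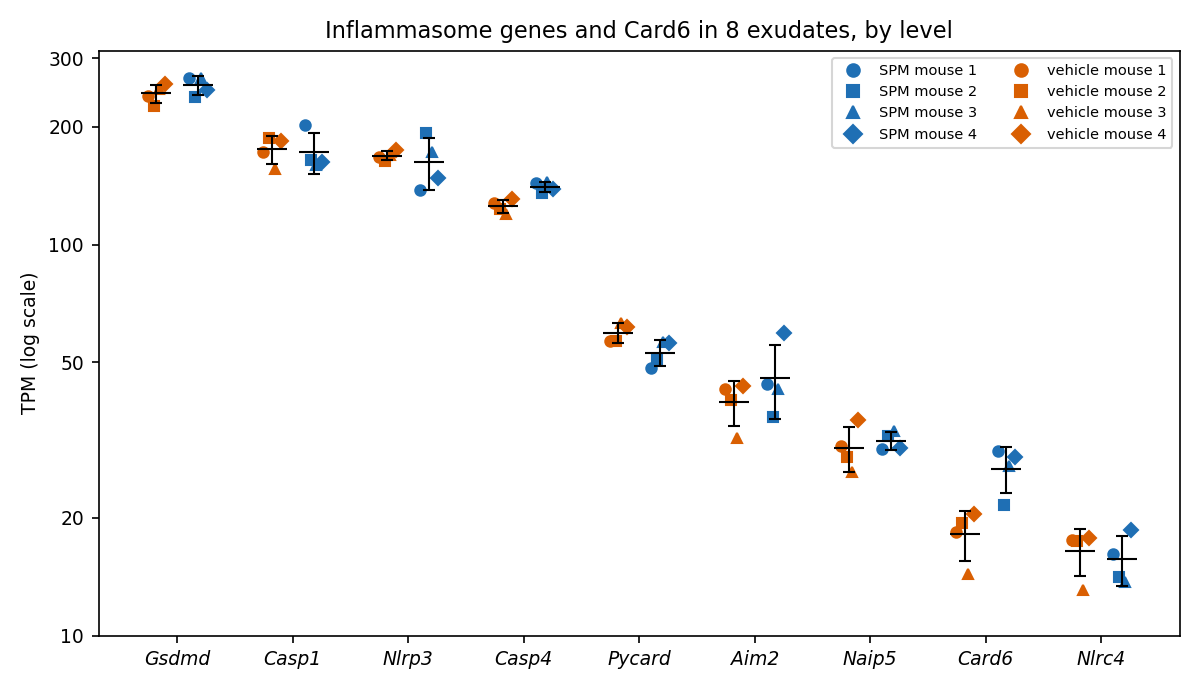
TPM of each gene in each mouse on a log axis, genes ordered by mean level. Vehicle mice are orange, SPM mice blue, symbols mark mouse numbers, and black bars show the group mean ± SD (n = 4). The widest step in TPM, from Casp4 to Pycard, averaged 1.24 on the log2 scale and depends on the gene lengths used.

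Neighbours in this order were compared within each mouse by a two-sided exact permutation test of paired log2 TPM, with Benjamini-Hochberg adjustment over the 8 neighbouring pairs. In 7 of 8 pairs the adjusted p was under 0.05. The order was set from the same values, so these p-values describe how steadily each pair held it across the mice. Casp1 and Nlrp3 were the exception, with a mean difference of 0.07 on the log2 scale, Casp1 higher in 5 of 8 mice and p = 0.508 (exact). Nlrp3 exceeded Casp4 by 0.31 and Pycard exceeded Aim2 by 0.42, each in 7 of 8 mice (exact p = 0.0156, adjusted p = 0.0179). The other pairs held their order in 8 of 8 mice, which gives 0.00781, the smallest exact p that 8 mice allow (adjusted p = 0.0125). Card6 stood below Naip5 by 0.74 ± 0.13 on the log2 scale in vehicle and 0.25 ± 0.26 in SPM mice, the closest mouse at 0.02. It stood above Nlrc4 by 0.14 ± 0.06 in vehicle and 0.77 ± 0.18 in SPM mice (SD, n = 4), the closest mouse at 0.06. Both margins contain the group difference by which Card6 was chosen, so nothing is read from the p-values of these pairs. The order was the same in vehicle mice alone and in SPM mice alone.

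Among the 4 sensors Nlrp3, Aim2, Nlrc4 and Naip5, Nlrp3, which responds to potassium efflux and membrane damage and assembles with ASC, had the highest level. Normalised read counts (CPM, counts scaled to a common library total with edgeR's TMM factors) of Nlrp3 were 189, 274, 251 and 205 in SPM mice 1 to 4 and 238, 226, 271 and 251 in vehicle mice 1 to 4. SPM mice 1 and 4 were the lowest of the 8 and SPM mouse 2 the highest, so the groups overlapped. The log2 fold change of Nlrp3, SPM minus vehicle, was -0.10 ± 0.12 (SE, n = 4 per group). Leaving out SPM mouse 1 changed it to -0.01, SPM mouse 4 to -0.04, vehicle mouse 3 to -0.05 and SPM mouse 2 to -0.20.

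Aim2, a sensor of cytosolic double-stranded DNA that also recruits ASC, was at 52.3, 44.6, 53.6 and 70.8 CPM in SPM and 52.2, 47.6, 44.5 and 54.0 CPM in vehicle mice. SPM mouse 4 was the highest and the other 7 mice lay together, with a log2 fold change of 0.16 ± 0.13 that changed to 0.03 when SPM mouse 4 was left out and to 0.25 when SPM mouse 2 was. Naip5 binds bacterial flagellin and passes the signal to Nlrc4, which can engage caspase-1 through its own CARD domain. Naip5 was at 52.9, 59.2, 62.2 and 53.7 CPM in SPM and 55.4, 50.7, 54.0 and 65.6 CPM in vehicle mice, with overlapping groups and a log2 fold change of 0.02 ± 0.10, which ran from -0.03 to 0.10 with each mouse left out. Nlrc4 was at 21.1, 19.0, 18.9 and 24.4 CPM in SPM and 23.6, 22.8, 19.9 and 24.1 CPM in vehicle mice. SPM mice 2 and 3 were lowest for Nlrc4 and SPM mouse 4 was highest, with a log2 fold change of -0.12 ± 0.11. Leaving out SPM mouse 2 or 3 brought it to -0.08 or -0.07, and SPM mouse 4 to -0.19. On the TPM scale the receptor Naip5 exceeded its partner Nlrc4 in every mouse, by a ratio of 2.05 ± 0.377 in SPM and 1.84 ± 0.184 in vehicle mice (SD, n = 4).

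Pycard encodes the adaptor ASC, which links the pyrin domain of Nlrp3 or Aim2 to the CARD of caspase-1. It was at 62.2, 68.1, 77.0 and 72.4 CPM in SPM and 75.0, 73.0, 94.9 and 82.9 CPM in vehicle mice. In CPM, SPM mice 1, 2 and 4 lay below every vehicle mouse and SPM mouse 3 within the vehicle range. In TPM every SPM mouse (48.3 to 56.53) lay below every vehicle mouse (56.54 to 63.1), by a margin smaller than 0.1 TPM. Its log2 fold change was -0.22 ± 0.11, the lowest of the 9 genes, and -0.14 without vehicle mouse 3. An opposite-strand gene, Gm45205, overlaps 485 of the 3800 exonic bases of Pycard, and it had 11 to 28 counts per mouse.

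Caspase-1 is the protease of the canonical pathway, and Casp4 encodes mouse caspase-11, which binds cytosolic lipopolysaccharide and cleaves gasdermin D without an inflammasome sensor. Casp1 was at 103, 86.3, 85.7 and 83.0 CPM in SPM and 90.4, 95.1, 92.5 and 97.6 CPM in vehicle mice. SPM mouse 1 was the highest of the 8 and the other SPM mice were the lowest, which left a log2 fold change of -0.07 ± 0.09 (-0.13 without SPM mouse 1 and -0.02 without SPM mouse 4). Casp4 was at 180, 176, 192 and 176 CPM in SPM and 165, 156, 176 and 172 CPM in vehicle mice. The groups met at 176 CPM, and the log2 fold change was 0.12 ± 0.08. On the TPM scale Casp4 was 135 to 145 in SPM and 120 to 131 in vehicle mice, so the Casp4 groups overlapped in CPM but not in TPM. The ratio of Casp1 to Casp4 TPM was 1.22 ± 0.133 in SPM and 1.39 ± 0.0904 in vehicle mice, with overlapping ranges since SPM mouse 1 stood at 1.41.

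The mouse genes of both caspases are adjacent on the plus strand of chromosome 9 (GRCm38), Casp1 at chr9:5298517-5307265 and Casp4 at chr9:5308828-5336783. Promoter sequence was available in the RefSeq table (GRCm38.p6) for 7 of the 9 genes, in 9 windows, and not for Card6 or Gsdmd. It was searched in the 250 bases before the start on both strands for an NF-κB-type motif (GGGNNTTCC), a STAT-type motif (TTCNNNGAA) and an interferon-response-type motif (GAAANNGAA), whose letters were chosen after the Casp4 promoter had been read. The NF-κB-type motif was found before Casp4 and Nlrp3, and the other motifs in none of the 9 windows. Among 32851 mouse promoter windows, 4.98% held the first motif, 7.02% the second and 7.13% the third. Since the letters were chosen with the Casp4 promoter known, no enrichment is read from these shares. One Casp4 window (chr9:5308599-5308848, plus strand) and one Nlrp3 window (chr11:59541319-59541568, plus strand) are shown because they hold the matches, in capitals.
Casp4: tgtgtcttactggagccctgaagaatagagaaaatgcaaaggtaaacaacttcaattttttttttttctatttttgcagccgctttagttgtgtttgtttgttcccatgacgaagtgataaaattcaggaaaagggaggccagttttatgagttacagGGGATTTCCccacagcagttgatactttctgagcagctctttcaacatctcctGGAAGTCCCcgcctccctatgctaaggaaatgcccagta
Nlrp3: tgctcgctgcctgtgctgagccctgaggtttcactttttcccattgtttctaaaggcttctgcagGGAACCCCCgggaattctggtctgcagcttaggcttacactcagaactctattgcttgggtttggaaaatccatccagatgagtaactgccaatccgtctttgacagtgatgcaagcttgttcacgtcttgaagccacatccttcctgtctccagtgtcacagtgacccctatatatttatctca
In the Casp4 window the matches lie 92 to 84 bases and 39 to 31 bases before the start, the second on the minus strand, and in the Nlrp3 window 185 to 177 bases before it on the minus strand. A second, overlapping Casp4 window held the same matches, and a second Nlrp3 window held 1 further match. These are matches of letters and not measured binding sites.

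Gsdmd encodes gasdermin D, the pore former that both caspases cleave. It was at 161, 149, 170 and 151 CPM in SPM and 149, 137, 176 and 161 CPM in vehicle mice. The SPM values all lay inside the vehicle range, at 157 ± 9.70 CPM against 156 ± 16.8 CPM (SD, n = 4). The log2 fold change of Gsdmd was 0.02 ± 0.10, and -0.02 to 0.08 with each mouse left out. The gene lies on the plus strand at chr15:75862339-75867404. The ratio of Gsdmd to Casp1 TPM was 1.49 ± 0.148 in SPM and 1.40 ± 0.160 in vehicle mice.

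Card6 encodes a CARD-containing protein that has been described as a modulator of NF-κB signalling and as a partner of RIP kinases, and it is not a core component of an inflammasome. It lies on the minus strand at chr15:5095981-5108539, with 4 exons in its longest annotated form. Card6 was at 61.1, 46.2, 59.4 and 59.7 CPM in SPM and 39.2, 40.2, 34.8 and 44.2 CPM in vehicle mice. SPM mice 1, 3 and 4 lay close together, SPM mouse 2 lay nearer to the vehicle mice, and the lowest SPM mouse was above the highest vehicle mouse. Means were 56.6 ± 6.94 CPM in SPM and 39.6 ± 3.89 CPM in vehicle mice (SD, n = 4), a 1.43-fold ratio with a log2 fold change of 0.51 ± 0.11. In TPM the values were 29.6, 21.6, 27.1 and 28.7 in SPM and 18.4, 19.4, 14.4 and 20.5 in vehicle mice, again without overlap. The log2 fold change lay between 0.46 and 0.60 when each mouse was left out in turn. These values chose the gene, and they are given as a description.

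Between 682 and 1319 reads were counted on Card6 per mouse, where counting error alone gives a coefficient of variation of 3.36%, against 12.3% between SPM mice and 9.82% between vehicle mice. Of the 100-base stretches of its longest transcript, 8.24% also occur in the pseudogene Gm16077, which had at most 1 count in any mouse. The same share was 16.2% for Naip5, with other Naip genes, 10.4% for Pycard, with Gm45205, and 0 for the other 6 genes. Reads that lie wholly in shared stretches may not be assigned by unique counting, and with no strand setting given, reads of Pycard and Gm45205 cannot be told apart, so the levels of Naip5, Card6 and Pycard are uncertain to that extent.

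By sign, 5 of the 9 genes were higher and 4 lower in SPM mice, with a median log2 fold change of 0.02 beside -0.02 over all genes tested. The signs of Gsdmd and Naip5 were not kept in every setting, and both genes lay near 0. Of the 9 genes, 1 (Card6) had an unadjusted p under 0.05 with a higher level in SPM, where 2.49% of all genes tested did, and 0 with a lower level, where 3.59% did. In 1 of the 9 (Card6 again) every SPM mouse lay above every vehicle mouse in CPM, where 1.46% of all genes did, and in 0 of the 9 every SPM mouse lay below, where 2.37% did. Since the rule used that contrast, nothing is read from these counts. The remaining 8 genes lay between -0.22 and 0.16 in log2 fold change.

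**Figure D2:**
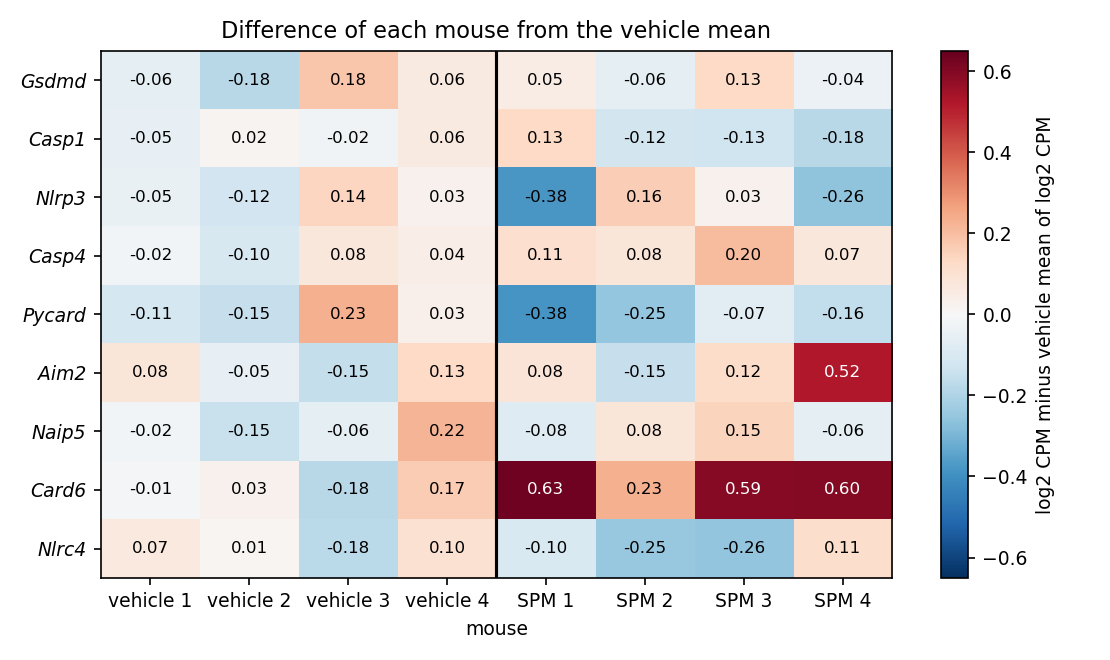
Difference of log2 CPM of each gene (rows) in each mouse (columns) from the vehicle mean of that gene, printed in each cell and coloured red above and blue below 0. Card6 is 0.23 to 0.63 above the vehicle mean in the SPM mice, and no other gene has 1 sign in all 4 SPM mice except Casp4 (0.07 to 0.20) and Pycard (-0.38 to -0.07).

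The 9 genes did not move as 1 block from mouse to mouse. Vehicle mouse 4 was above the vehicle mean for 9 of 9 genes, by a median of 0.06 on the log2 scale. SPM mouse 1 was the lowest of the 8 for Nlrp3 and Pycard and the highest for Casp1 and Card6. SPM mouse 4 was the highest for Aim2 and Nlrc4 and the lowest for Casp1. The ratio of Card6 to Pycard TPM, both CARD-containing proteins, was 0.507 ± 0.0794 in SPM and 0.307 ± 0.0532 in vehicle mice. It contains the group difference by which Card6 was chosen, so nothing is read from it. The ratio of Nlrp3 to its adaptor Pycard was 3.08 ± 0.488 in SPM and 2.85 ± 0.124 in vehicle mice.

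The genes whose pattern over the 8 mice was most like that of Card6 were found by the root mean square difference of log2 CPM, each gene centred on its own mean, among genes with a mean of at least 5 CPM. The closest were Dtnb, which encodes the dystrophin-associated protein dystrobrevin beta (0.11), Rapgef6, an exchange factor for Rap GTPases (0.11), Enc1, a kelch-family actin-binding protein (0.12), Arhgef18 (0.12), and Ssh2, a phosphatase of cofilin (0.12). Rapgef6 was at 98.9 ± 7.99 CPM in SPM and 79.2 ± 9.58 CPM in vehicle mice, and SPM mouse 2 was its lowest SPM mouse, as for Card6. Ssh2 was at 198 to 248 CPM in SPM and 167 to 199 CPM in vehicle mice, with a slight overlap. Of the other 8 genes described here, Aim2 was the closest to Card6, with a difference of 0.23 and rank 560 of 9606 genes, followed by Casp4 with 0.25 and rank 1017. Nlrp3 was the farthest, with 0.42 and rank 7857. These likenesses rest on 8 mice and include the group difference by which Card6 was chosen.

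**Figure D3:**
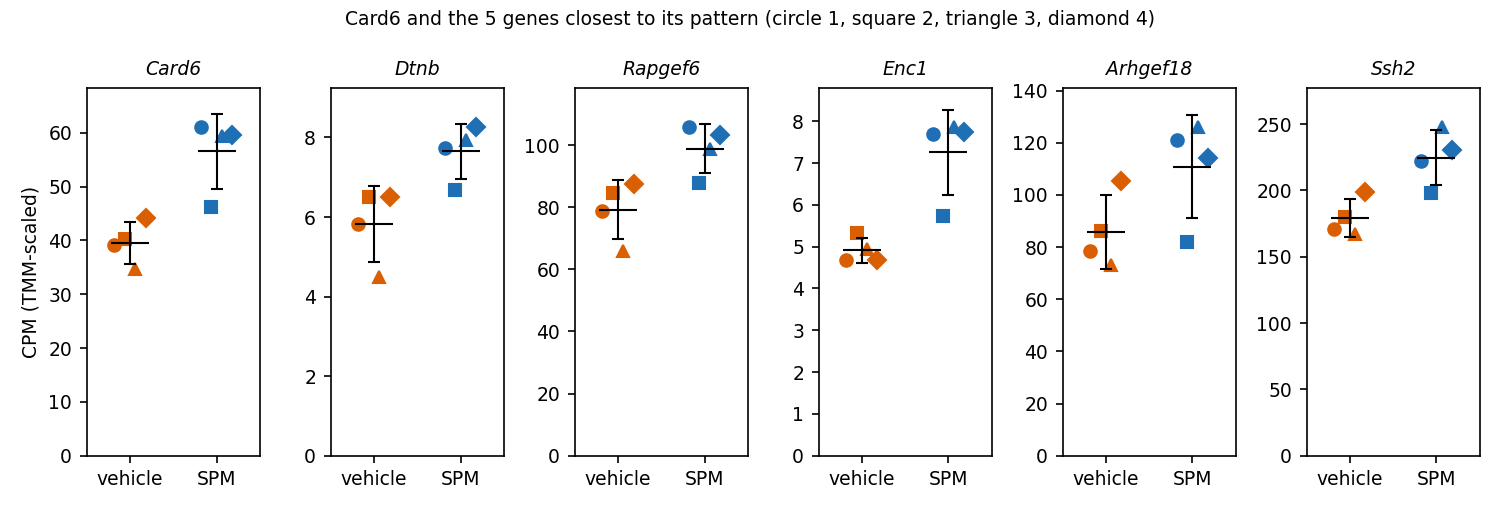
CPM of Card6 and of the 5 genes closest to its pattern, by group, with each mouse as a symbol and the group mean ± SD (n = 4). In each panel SPM mouse 2 (square) is the lowest SPM mouse, at 46.2 CPM for Card6.

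The wider pathway was described from 66 genes listed by function, all of which are in the tables and 64 of which had enough counts to be tested (not Nlrp9b and Gsdmc). In SPM against vehicle mice, 38 were higher and 26 lower by sign, with a median log2 fold change of 0.04, beside 10120 higher and 11303 lower of the 21423 genes tested, with a median of -0.02. At an unadjusted p under 0.05, 1 of the 64 was higher and 4 were lower, together 7.81%, beside 2.49% higher and 3.59% lower over all genes. The balance of directions was not stable, with 6 higher and 3 lower when SPM mouse 4 was left out, 6 higher and 6 lower when every gene with 1 count or more was kept, and 1 higher and 1 lower under edgeR's filterByExpr. With adjustment over all genes tested, 0 of the 64 passed in edgeR's quasi-likelihood test (Benjamini-Hochberg, smallest adjusted p = 0.790).

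Among 17 tested sensors beside those above, 14 were higher and 3 lower by sign, with a median of 0.11. Nlrp12, an NLR protein described as a restraint on NF-κB signalling and as a sensor, was at 52.9, 68.7, 71.9 and 62.0 CPM in SPM and 43.8, 49.7, 56.3 and 43.3 CPM in vehicle mice. In CPM, SPM mouse 1 lay below the highest vehicle mouse, whereas in TPM the groups did not overlap (20.7 to 26.6 in SPM and 16.2 to 19.4 in vehicle mice), and the log2 fold change was 0.40 ± 0.12 (edgeR, unadjusted p = 0.00470). Several microRNA genes overlap its exons. Ifi204 and Ifi207, interferon-inducible DNA sensors of the Aim2 family, had the highest levels of the list, both with overlapping groups. Ifi204 was at 743 ± 78.4 CPM in SPM and 708 ± 26.3 CPM in vehicle mice, and Ifi207 at 449 ± 62.5 and 384 ± 86.6 CPM. Vehicle mouse 3 was the lowest for Ifi207, at 256 CPM. The log2 fold change of Ifi207 was 0.23 ± 0.16, and ran from 0.08 without vehicle mouse 3 to 0.31 without SPM mouse 1.

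Licensing and upstream genes, which prime or trigger inflammasomes, were higher in 14 and lower in 4 of 18 by sign, with a median of 0.09 and 0 genes at an unadjusted p under 0.05. Txnip, a thioredoxin-binding protein that has been linked to Nlrp3, was at 812 ± 102 CPM in SPM and 728 ± 115 CPM in vehicle mice. The log2 fold change of Txnip was 0.16 ± 0.13, and ran from 0.10 without SPM mouse 3 to 0.28 without vehicle mouse 3. Of its 3123 exonic bases, 606 overlap the opposite-strand gene Gm15441. Gbp2, a guanylate-binding protein that attacks pathogen membranes, was at 451 ± 173 CPM and 370 ± 91.6 CPM, with SPM mouse 1 at 686 CPM above all others. The log2 fold change of Gbp2 was 0.29 ± 0.24, and 0.02 without SPM mouse 1.

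Caspases, pore formers and genes of membrane rupture or repair were higher in 4 and lower in 8 of 12 tested, with a median of -0.16. Elane, which encodes neutrophil elastase, was lower in SPM (log2 fold change -1.70 ± 0.47, unadjusted p = 0.00319 in edgeR), and so was Casp12, a caspase gene beside Casp4 (-1.53 ± 0.53, unadjusted p = 0.0131 in edgeR). Both were barely expressed, with 2 to 4 counts per SPM mouse and 7 to 16 per vehicle mouse for Elane, and 1 to 4 and 6 to 12 counts for Casp12. With limma on log2(TPM + 1) the log2 difference was -0.79 for Elane and -0.25 for Casp12. Ninj1, which ruptures the membrane after pores have formed, was at 326 ± 37.1 CPM in SPM and 402 ± 93.7 CPM in vehicle mice, with vehicle mouse 3 at 541 CPM and overlapping groups. Its log2 fold change was -0.30 ± 0.15, and -0.12 without vehicle mouse 3. Chmp4b, an ESCRT subunit used in membrane repair, was at 455 ± 53.3 CPM and 454 ± 37.7 CPM.

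Of 14 genes of CARD and RIP kinase signalling, 5 were higher and 9 lower by sign, with a median of -0.05. Ripk3, the kinase of necroptosis, was at 73.4, 91.1, 77.3 and 61.02 CPM in SPM and 102, 100.01, 91.4 and 92.3 CPM in vehicle mice. In CPM every SPM mouse lay below every vehicle mouse, by a margin of under 1 CPM between SPM mouse 2 and vehicle mouse 3, whereas in TPM the groups overlapped (91.1 to 132 in SPM and 118 to 150 in vehicle mice), and the log2 fold change was -0.35 ± 0.11 (edgeR, unadjusted p = 0.00915). Card19, another CARD-containing protein, was at 215 ± 18.5 CPM in SPM and 253 ± 29.8 CPM in vehicle mice, with overlapping groups and a log2 fold change of -0.24 ± 0.11 (edgeR, unadjusted p = 0.0423). In 9 of 17 other settings the p of Card19 was not under 0.05, DESeq2 among them, and its log2 fold change became -0.15 when vehicle mouse 3 was left out.

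Of the cytokines released through the pathway, Il1b was at 800, 1126, 1200 and 778 CPM in SPM and 805, 764, 1832 and 865 CPM in vehicle mice. Vehicle mouse 3 was the highest, and the log2 fold change of -0.13 ± 0.26 became 0.27 without it. Il1a was at 32.4 ± 8.61 CPM in SPM and 38.4 ± 9.73 CPM in vehicle mice (log2 fold change -0.25 ± 0.20, and -0.06 without SPM mouse 1 or without vehicle mouse 3), and Il18 had a log2 fold change of 0.01.

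**Figure D4:**
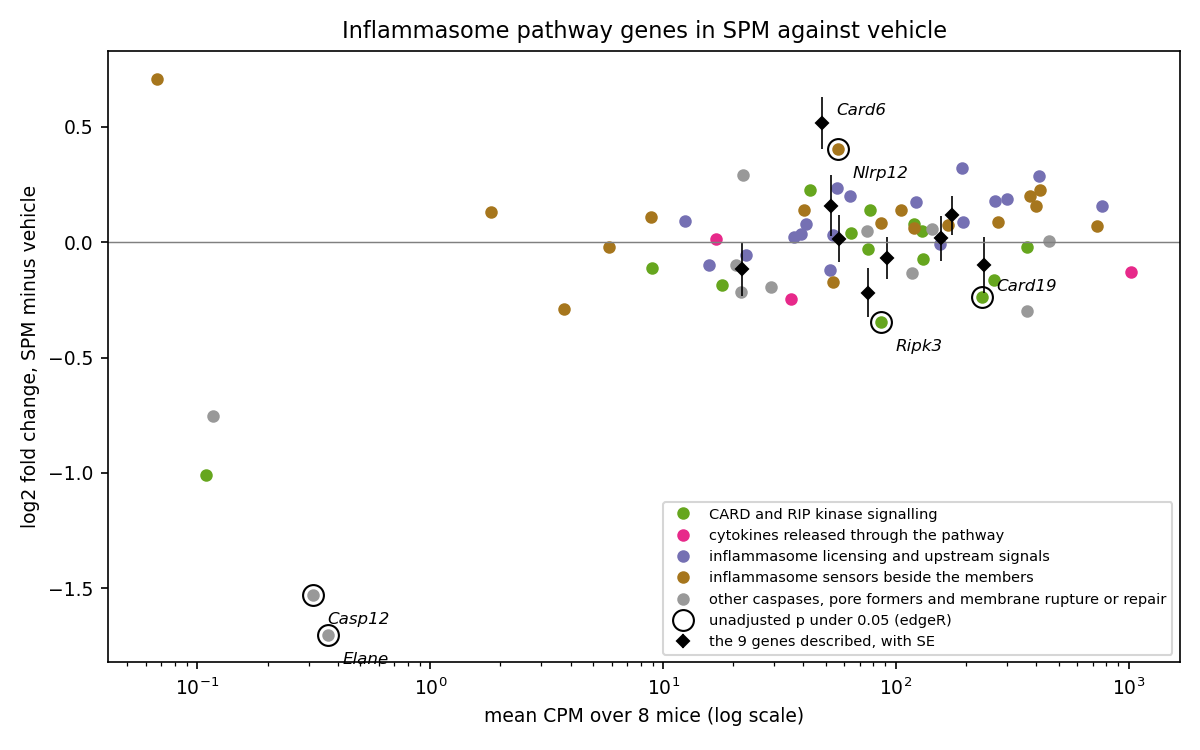
Log2 fold change, SPM minus vehicle, against mean CPM over 8 mice (log scale) for the 64 tested pathway genes, coloured by list, and for the 9 genes described, as black diamonds with SE. Open circles mark the 5 pathway genes with an unadjusted p under 0.05, of which Elane and Casp12 lie under 1 CPM.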

How the data were processed

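RNA-seq libraries of 8 mice were analysed, 4 SPM and 4 vehicle by the sample labels. The authors trimmed reads with Trimmomatic 0.36, aligned them with STAR 2.5.2b to GRCm38 with ERCC spike-ins, and used featureCounts to assign uniquely mapped reads to the exons of Ensembl genes (Subread 1.5.2), versions per the submitters' processing notes. The annotation release and strand setting are not given in the sources used here. The deposited counts are raw, and the deposited TPM were scaled by the authors for gene length and library. The deposited count files per mouse equalled the joined table in all 398104 values compared.

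Spike-ins were left out, genes with at least 10 counts in all were kept, and groups were compared with edgeR 4.0.16 (R 4.3.3, TMM scaling, quasi-likelihood test, Benjamini-Hochberg adjustment, no covariates). CPM used TMM scaling. Log2 CPM had a prior count of 2 for the likeness to Card6 and none for the differences from the vehicle mean. Standard errors were computed as the size of the log2 fold change over the square root of edgeR's F. DESeq2 1.42.0 and limma 3.58.1 on log2(TPM + 1) and log2(TPM + 0.1) were alternatives, with other scalings, filters, the mouse number as a block and each mouse left out. On simulated data with 21519 genes, edgeR recovered 81 of 100 genes changed by 1 and 99 of 100 changed by 2 on the log2 scale, with 13 false calls. The changed genes had a mean of at least 1 CPM and counts varied independently, so recovery at lower levels was not measured. With counts from 1 library per mouse, p-values measure the spread between these mice.

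Members, pathway lists, markers and naming rules were chosen with earlier results of these data known. Named were the 9 genes, pathway genes with an unadjusted p under 0.05, the 2 of each list with the highest mean TPM, and the 5 genes most like Card6; Il18 was named after its value was seen. Gene positions are those of the deposited files, gene types, overlaps and shared 100-base stretches come from GENCODE M21, and promoters from RefSeq.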

Additional observations from a re-analysis of the deposited data

Results flagged for a closer look

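In 74 sets of 4 mice (1 quantity in 1 group) the highest or lowest mouse was compared with the others of its group. In 7 sets, each a gene in CPM, that mouse stood apart by Dixon's criterion on its gap as a share of the range. Chance alone flags about 1 in 20 of such sets, but Enc1 was chosen for its likeness to Card6, so its flag is not independent of that of Card6, and the sets share mice. Casp1 was at 102.654 CPM in SPM mouse 1, above 83.0 to 86.3 CPM in the other SPM mice. Card6 was at 46.2418 CPM in SPM mouse 2, below 59.4 to 61.1 CPM in the others. Enc1 in SPM mouse 2 was at 5.73922 CPM, below 7.69 to 7.86 CPM. Ninj1 was at 382.123 CPM in SPM mouse 2, above about 308 CPM in the others, and at 540.835 CPM in vehicle mouse 3, above 345 to 375 CPM. Vehicle mouse 3 also stood apart for Il1b, at 1832.25 CPM above 764 to 865 CPM, and for Txnip, at 898.995 CPM above 658 to 698 CPM.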

How the results depend on the processing

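The count of genes with an adjusted p under 0.05 stayed at 0 in every setting but that with every gene of at least 1 count, where it was 160. In that fit edgeR's prior degrees of freedom were infinite, so that all genes shared 1 prior spread. With each mouse left out it was 0 to 0. The count of pathway genes with an unadjusted p under 0.05 was 5, and 2 with filterByExpr (1 higher and 1 lower), 12 with every gene of at least 1 count (6 higher and 6 lower), and 4 to 9 with each mouse left out, the 9 without SPM mouse 4 (6 higher and 3 lower, against 1 higher and 4 lower with all mice). With the mouse number as a replicate block the counts were 0 and 6. Deviations of same-numbered mice correlated at -0.07, 0.13, 0.19 and -0.01. The best vehicle match of SPM mice 2 and 3 had the same number, and that of SPM mice 1 and 4 another number. Whether the numbers pair the mice cannot be told from so few values. In the level order 7 of 8 neighbouring pairs passed in every setting. They were the same 7 pairs except without SPM mouse 1, where Casp1 and Nlrp3 changed places and 5 of the 7 remained neighbours and passed. The pairs with Card6 contain the group difference by which it was chosen, so nothing is read from their passing. The order was set from the same values, and no setting tried other gene lengths. For the 9 genes, 153 of 153 alternative log2 fold changes differed from the main value by no more than the SD between mice within groups. Leaving out 1 mouse or changing the scaling can hardly move a value farther, so nothing is read from that count. The sign was kept in 17 of 17 settings except for Gsdmd (14 of 17) and Naip5 (13 of 17). Of 218 values for named pathway genes, 9 lost an unadjusted p under 0.05, all of Card19 (9 of its 17 settings). Elane and Casp12 were not tested with filterByExpr, nor Casp12 under the filter on mean TPM (1 or more), so their calls drop out there. Their size depends on the pseudocount, at -0.79 and -0.25 with limma on log2(TPM + 1) and -1.46 and -1.01 on log2(TPM + 0.1), against -1.70 and -1.53 in edgeR. Depth limits Elane and Casp12, with 58 and 49 counts in all. 4 mice per group give a wide error, so that a difference that misses the threshold is not shown to be absent.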
